A study of Mus musculus with 12 samples.

Results

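Bax, which encodes an effector of mitochondrial apoptosis, was followed together with 4 other genes of mouse chromosome 7, Ftl1, Dhdh, Slc6a16 and Snord35b. They are 5 of the 27179 genes in a table of reads per gene, and all 5 were found by their gene number. They had been chosen because their levels differed between mice that carry a floxed or a deleted Bax allele and mice that carry neither, so comparisons that involve those alleles are described here with no test. That choice did not use old against young wild-type mice, and those groups were tested. The young libraries did enter the choice, as the wild-type side of its comparisons, so the age test is not fully independent of it.

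RNA was sequenced from mature bone marrow B cells (B220high IgM+ CD93- by sorting) in 4 groups of 3 libraries on a C57BL/6 background. Apoptosis-resistant mice were Bak-/- BaxD/D, in which Bax was deleted, and apoptosis-sensitive mice were Bak-/- Baxfl/fl, in which Bax was flanked by recombination sites but present. Both were 10 weeks of age and lacked Bak1, the gene of the sister effector BAK. Old wild-type mice were 98, 99 and 100 weeks of age and young wild-type mice 9, 10 and 11 weeks. The series calls the 3 libraries of a group biological replicates. How Bax was deleted, and which exons were removed, was not given in the sources used here. Each apoptosis-resistant library shared its collection date with the apoptosis-sensitive library of the same number (30 May, 31 May and 7 May), and each old library with the young library of its number (24 March, 11 April and 12 April). The labels give the year 2006 for the 24 March pair and 2016 for all other libraries, and whether that is a typing error is not known. The mutant and wild-type groups shared no date, so the floxed allele, loss of Bak1 and collection date cannot be told apart between them.

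BAX and BAK open pores in the outer mitochondrial membrane, which releases cytochrome c and starts the caspase cascade. Anti-apoptotic BCL-2 proteins hold them in check, and BH3-only proteins relieve that hold. Cells with neither effector do not die by this route, and in the B lineage it removes surplus and self-reactive cells. A floxed gene is cut out only where a recombinase acts, and in other cells the altered sequence around it remains in place.

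Bax lies on the minus strand of chromosome 7 at chr7:45461695-45466903 in the mm10 build (GRCm38). Ftl1, the light chain of the iron store ferritin, follows 1809 bases downstream of it on the same strand, at chr7:45457944-45459886. Dhdh, an enzyme that oxidises dihydrodiols of aromatic hydrocarbons, lies on the same strand 6053 bases away on the other side, at chr7:45472956-45488888. Slc6a16, a member of the SLC6 transporter family with no established substrate, is on the plus strand 188330 bases from Bax, at chr7:45240753-45273365. Snord35b is a small nucleolar RNA of the box C/D class, whose members guide ribose methylation of ribosomal RNA. It lies at chr7:45123025-45123111 on the minus strand, 338584 bases from Bax.

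The sequences below show the promoters of the 3 members with an entry in the RefSeq table, and the whole sequence of the snoRNA. Each promoter is the window of 250 bases that the RefSeq table (GRCm38.p6) places before a start site, which for Bax lies slightly inside the gene bounds given above. Capitals mark motifs found by a search of both strands. The motifs searched were CACGTG (the E-box of MYC and related factors), the CCAAT box of promoters, the TATA box written TATAAA and the half-site of p53, the factor for which Bax is a known target in mouse and human.
Bax, chr7:45466899-45467148, minus strand, p53 half-site and CACGTG in capitals: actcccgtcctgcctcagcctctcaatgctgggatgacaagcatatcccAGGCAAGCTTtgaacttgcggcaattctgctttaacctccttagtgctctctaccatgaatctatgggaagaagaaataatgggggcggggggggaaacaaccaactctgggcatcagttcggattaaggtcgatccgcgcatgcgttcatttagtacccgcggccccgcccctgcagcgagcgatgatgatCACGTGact
Ftl1, chr7:45459887-45460136, minus strand, CCAAT in capitals as its reverse complement: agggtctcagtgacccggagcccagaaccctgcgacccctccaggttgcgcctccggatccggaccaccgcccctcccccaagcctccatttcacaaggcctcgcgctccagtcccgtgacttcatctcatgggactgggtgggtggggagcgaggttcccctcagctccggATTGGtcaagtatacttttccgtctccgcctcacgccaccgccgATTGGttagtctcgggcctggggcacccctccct
Slc6a16, chr7:45240503-45240752, plus strand, CACGTG in capitals: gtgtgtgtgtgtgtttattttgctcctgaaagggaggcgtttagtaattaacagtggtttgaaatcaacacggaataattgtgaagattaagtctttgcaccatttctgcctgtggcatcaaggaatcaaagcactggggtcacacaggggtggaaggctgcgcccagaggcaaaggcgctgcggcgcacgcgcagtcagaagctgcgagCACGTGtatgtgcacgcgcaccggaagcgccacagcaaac
Snord35b, whole transcript of 87 bases (GENCODE M21), minus strand, TGATG and CTGA in capitals: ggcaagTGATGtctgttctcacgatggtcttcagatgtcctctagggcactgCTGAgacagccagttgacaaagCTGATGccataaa

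The Bax promoter held 1 CACGTG and 1 p53 half-site, the Ftl1 promoter 2 copies of CCAAT, and the Slc6a16 promoter 1 CACGTG. No window held the TATA box TATAAA. Of the 32851 RefSeq promoters of the same length, 6.02% held CACGTG, 33.8% CCAAT, 12.4% TATAAA and 7.13% a p53 half-site, so none of these sequences is particular to these genes. In Snord35b, the letters TGATG, the core of box C, begin at bases 7 and 76. The letters CTGA, those of box D, begin at bases 53 and 75, and the last pair overlaps as CTGATG. Which of these matches serve as boxes was not tested. Both motifs occur somewhere in 33.0% of the 1507 annotated snoRNA transcripts. A match describes these letters and does not show that a factor binds.

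Bax RNA was low in every apoptosis-resistant library and at wild-type levels in apoptosis-sensitive cells. The apoptosis-resistant libraries had 4.97, 6.42 and 8.36 CPM of Bax, where CPM is a gene's share of the library's reads on the usual scale after scaling by the trimmed mean of M values. Bax was at 55.7, 56.3 and 100.1 CPM in the apoptosis-sensitive, 90.0, 44.2 and 54.0 CPM in the old and 98.6, 54.0 and 48.7 CPM in the young libraries. The apoptosis-resistant libraries lay below all 9 others, and the other 3 groups overlapped one another. In apoptosis-resistant cells Bax was lower than in apoptosis-sensitive cells by a log2 fold change of -3.42 ± 0.40 (SE), and than in young wild-type cells by -3.34 ± 0.39. Apoptosis-sensitive cells differed from young wild type by 0.08 ± 0.35, which is less than its standard error.

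The remaining Bax signal rested on 72, 106 and 175 reads in the apoptosis-resistant libraries, against 988, 957 and 2141 in the apoptosis-sensitive ones. Within the same collection date, the apoptosis-resistant level was 8.91%, 11.4% and 8.35% of the apoptosis-sensitive level. These gene-level counts take in any part of Bax that was left in place, and cells that escaped deletion and transcripts left from undeleted exons cannot be told apart. More generally, in such bulk samples fewer cells with a transcript and less of it per cell cannot be told apart. A predicted coding gene, Gm45808, overlaps both Bax and Dhdh on the same strand, and its part in either count was not tested.

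Bak1, which both mutant groups lack by genotype, still had 10.7 ± 3.72 CPM (SD, n = 3) in apoptosis-resistant and 9.43 ± 3.15 CPM in apoptosis-sensitive cells, against 35.5 ± 10.4 CPM in old and 40.1 ± 8.10 CPM in young wild-type cells. Its log2 fold change against young wild type was -1.91 ± 0.34 in apoptosis-resistant cells (edgeR adjusted p = 0.0593) and -2.09 ± 0.34 in apoptosis-sensitive cells (edgeR adjusted p = 0.135). By edgeR neither passed the threshold of 0.05, while by DESeq2 both did, with an adjusted p of 2.60e-05 in apoptosis-resistant and 6.08e-06 in apoptosis-sensitive cells. In apoptosis-resistant cells Bak1 also passed by edgeR without the 24 March pair (adjusted p = 0.0496) and without a filter on low counts (adjusted p = 0.0278).

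**Figure D1:**
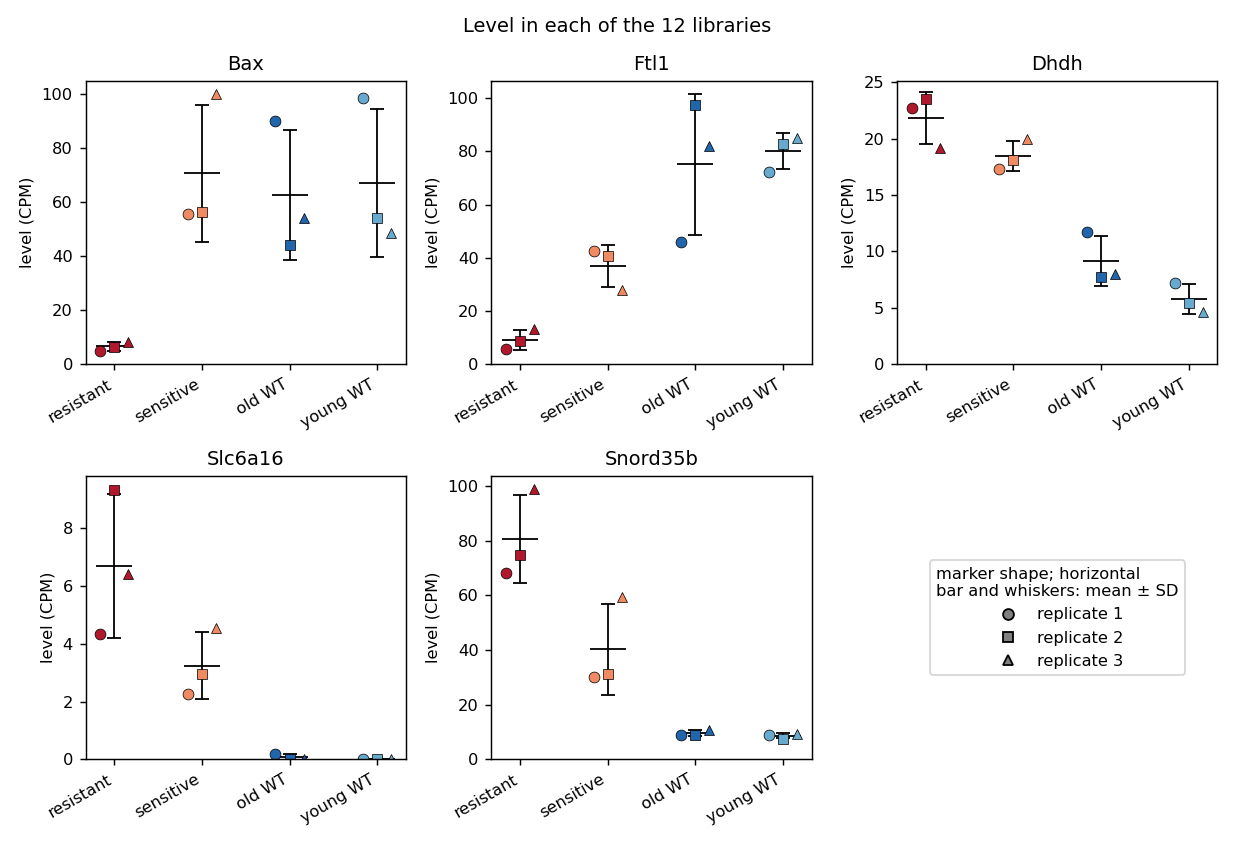
Level of each of the 5 genes (CPM, linear axes) in the 12 libraries, by group; points are libraries, with a shape for each replicate number, and bars with whiskers are the mean ± SD. Bax is below 10 CPM in the 3 apoptosis-resistant libraries alone, Ftl1 is lower in both Bak1-deficient groups, and Dhdh, Slc6a16 and Snord35b stand higher in both Bak1-deficient groups than in both wild-type groups.

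Ftl1 was lowest in apoptosis-resistant cells, intermediate in apoptosis-sensitive cells and highest in wild-type cells. It had 5.52, 8.67 and 13.2 CPM in the apoptosis-resistant and 42.6, 40.5 and 27.9 CPM in the apoptosis-sensitive libraries, against 45.9, 97.6 and 81.9 CPM in the old and 72.4, 82.9 and 84.9 CPM in the young libraries. The 3 steps do not overlap, although the lowest old library came close to the highest apoptosis-sensitive one. Its log2 fold change was -2.01 ± 0.34 in apoptosis-resistant against apoptosis-sensitive cells, -1.12 ± 0.32 in apoptosis-sensitive against young wild-type cells and -3.13 ± 0.35 in apoptosis-resistant against young wild-type cells. Unlike Bax, Ftl1 was thus already lower where Bax was floxed and present.

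The size of the Ftl1 difference varied between the same-date pairs of libraries. Each date held a single pair, so a date and its libraries cannot be told apart. Within dates the apoptosis-resistant level was 12.96% (30 May), 21.4% (31 May) and 47.3% (7 May) of the apoptosis-sensitive level. Without the 7 May pair the log2 fold change of apoptosis-resistant against apoptosis-sensitive cells was -2.55.

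Ftl1 has near-identical copies elsewhere, and reads shared between copies may be divided or dropped by the counting. The pseudogene Ftl1-ps2 on chromosome 10, chosen after its values were seen, went the other way. It had 7.79 ± 1.24 CPM in apoptosis-resistant and 7.37 ± 5.13 CPM in apoptosis-sensitive cells, against 1.05 ± 0.57 CPM in old and 0.83 ± 0.35 CPM in young wild-type cells (SD, n = 3 each). The highest of these was the apoptosis-sensitive library of 7 May, at 13.3 CPM, which was also the apoptosis-sensitive library with the least Ftl1. Summed over both rows, ferritin light chain reads were 16.9 ± 3.83 CPM in apoptosis-resistant, 44.3 ± 2.85 CPM in apoptosis-sensitive, 76.1 ± 27.1 CPM in old and 80.9 ± 7.05 CPM in young cells. The order of the group means was the same as for Ftl1 alone, but the highest apoptosis-sensitive library (46.6 CPM) now overlapped the lowest old one (46.3 CPM).

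**Figure D2:**
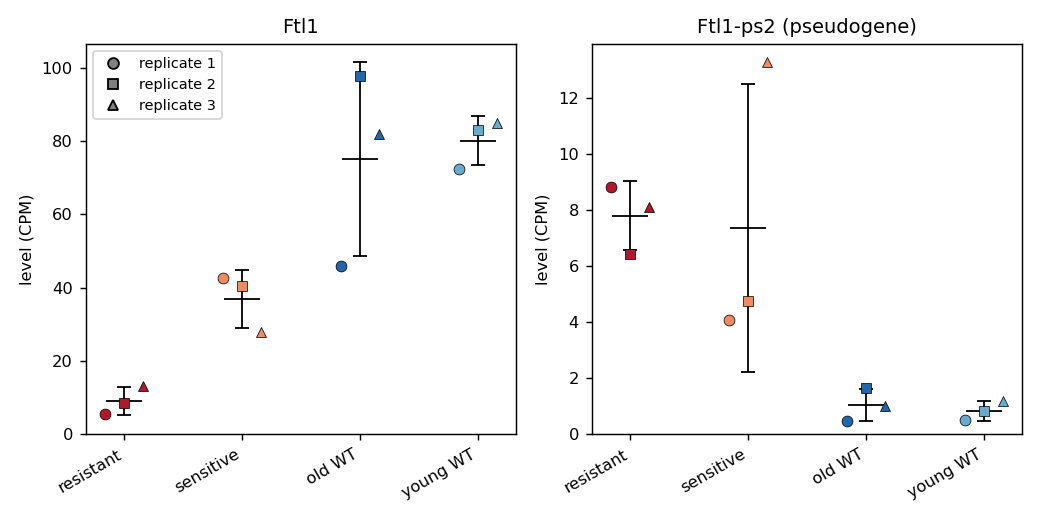
Levels (CPM, linear axes) of Ftl1 (left) and of the pseudogene Ftl1-ps2 (right) by group, with points for libraries, a shape for each replicate number, and bars with whiskers for the mean ± SD. Ftl1 is lower and Ftl1-ps2 higher in the Bak1-deficient libraries than in the wild-type ones.

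Dhdh stood higher in both Bak1-deficient groups and hardly differed between them. Its level was 22.8, 23.5 and 19.2 CPM in the apoptosis-resistant and 17.3, 18.1 and 19.97 CPM in the apoptosis-sensitive libraries, against 11.7, 7.73 and 8.01 CPM in the old and 7.23, 5.40 and 4.62 CPM in the young libraries. The mutant groups overlapped each other and lay above all 6 wild-type libraries. Against young wild type, the log2 fold change was 1.93 ± 0.24 in apoptosis-resistant and 1.69 ± 0.24 in apoptosis-sensitive cells. Between apoptosis-resistant and apoptosis-sensitive cells it was 0.24 ± 0.23, and the ratio within dates was 1.31, 1.30 and 0.962. Tulp2, which overlaps Dhdh on the opposite strand, averaged 0.066 CPM in apoptosis-resistant, 0.096 CPM in apoptosis-sensitive, 0.291 CPM in old and 0.144 CPM in young cells.

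Slc6a16 was read in all 6 Bak1-deficient libraries and nearly absent from wild-type ones. It had 63, 154 and 134 reads in the apoptosis-resistant and 40, 50 and 97 in the apoptosis-sensitive libraries, against 4, 0 and 0 reads in the old libraries and 0 in each young library. In CPM this was 4.35, 9.33 and 6.404 in apoptosis-resistant and 2.26, 2.94 and 4.54 in apoptosis-sensitive cells, and these ranges overlap. With reads summed over each group, Slc6a16 was at 6.76 CPM in apoptosis-resistant and 3.33 CPM in apoptosis-sensitive cells, and a floor of 3 reads summed over the young libraries corresponds to 0.0592 CPM. On these summed levels Slc6a16 was at least 114-fold higher in apoptosis-resistant and at least 56.3-fold higher in apoptosis-sensitive than in young wild-type cells. Between the mutant groups the log2 fold change was 1.04 ± 0.61, with ratios within dates of 1.93, 3.17 and 1.41, and the apoptosis-resistant library was the higher on each date.

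Snord35b, the farthest of the 5 from Bax, was higher in apoptosis-sensitive than in wild-type cells and higher again in apoptosis-resistant cells. Its level was 68.3, 74.7 and 99.0 CPM in the apoptosis-resistant and 30.2, 31.1 and 59.5 CPM in the apoptosis-sensitive libraries, against 8.96, 8.80 and 10.8 CPM in the old and 8.79, 7.54 and 9.43 CPM in the young libraries. No apoptosis-resistant library overlapped an apoptosis-sensitive one, and none of either overlapped wild type. The log2 fold change was 1.001 ± 0.26 in apoptosis-resistant against apoptosis-sensitive cells, with ratios within dates of 2.26, 2.40 and 1.66. Against young wild type it was 3.23 ± 0.29 in apoptosis-resistant and 2.23 ± 0.28 in apoptosis-sensitive cells.

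Snord35b lies within a longer gene on its own strand, and its row may take reads from that longer transcript. It may also take reads from Gm45552, an antisense gene that overlaps it, since the strand setting was not given in the sources used here. How much of the row comes from the snoRNA itself was not tested. Other snoRNAs of the region stayed low: Snord32a averaged 1.35 CPM in apoptosis-resistant, 1.22 CPM in apoptosis-sensitive, 3.09 CPM in old and 3.14 CPM in young cells, and Snord33, Snord34 and Snord35a averaged under 0.5 CPM in each group.

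**Figure D3:**
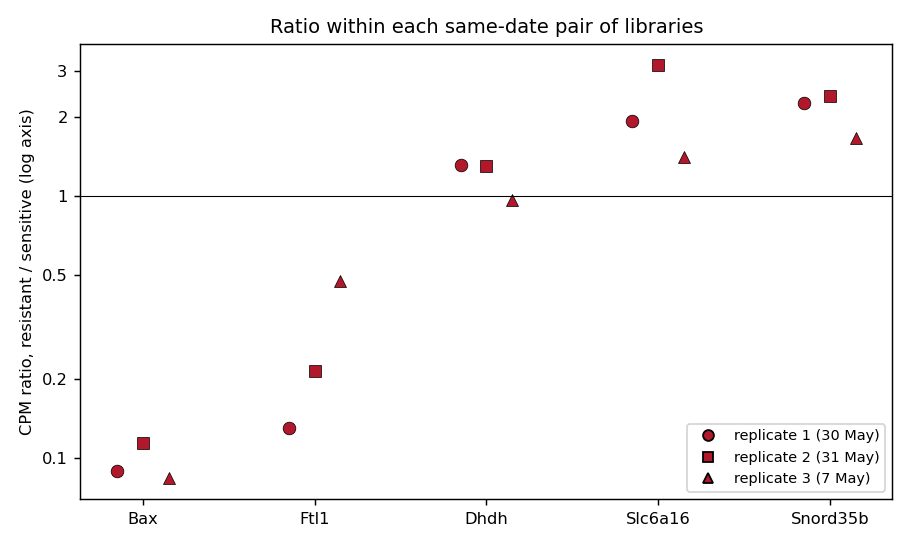
Ratio of the apoptosis-resistant to the apoptosis-sensitive CPM level within each collection date (log axis), for the 5 genes; each point is 1 pair of libraries. Bax lies near 0.1 on all 3 dates, Ftl1 spreads from 0.13 to 0.47, Dhdh lies on both sides of 1, and Slc6a16 and Snord35b lie above 1 on every date.

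Set against all 13592 genes that were tested, Bax and Ftl1 were lower and Snord35b higher in apoptosis-resistant than in apoptosis-sensitive cells with no overlap between libraries, where 8.31% of all genes were lower and 6.32% higher in that way. In apoptosis-sensitive against young wild-type cells, Ftl1 was lower and Dhdh, Slc6a16 and Snord35b higher without overlap, beside 4.25% of all genes lower and 4.57% higher. For all 6 Bak1-deficient against all 6 wild-type libraries, which holds for Ftl1, Dhdh, Slc6a16 and Snord35b but not for Bax, the share was 0.883%, with 0.331% lower and 0.552% higher. The 5 genes were chosen on these contrasts, so their counts are a description. All 5 passed the filter on low counts, Slc6a16 through the Bak1-deficient groups alone.

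Per kilobase of exon, which allows levels to be compared between genes, Bax and Ftl1 were the highest of the 4 protein-coding genes in wild-type cells. Bax averaged 7.59 CPM per kilobase in apoptosis-resistant, 81.5 in apoptosis-sensitive, 72.3 in old and 77.4 in young cells, and Ftl1 averaged 9.43, 38.2, 77.6 and 82.7 CPM per kilobase in the same order of groups. Dhdh had 4.10 CPM per kilobase in apoptosis-resistant, 3.47 in apoptosis-sensitive, 1.72 in old and 1.08 in young cells. Slc6a16 reached 2.34 CPM per kilobase in apoptosis-resistant and 1.13 in apoptosis-sensitive cells. In apoptosis-resistant cells means of Bax, Ftl1 and Dhdh lay between 4.10 and 9.43 CPM per kilobase.

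Age was compared in the wild-type mice. The contrast of old against young cells did not enter the choice of the genes, but the young libraries did. By edgeR's quasi-likelihood test, 2.01% of all tested genes passed an adjusted p of 0.05 in old against young cells, and Bax, Ftl1, Dhdh and Snord35b did not. Bax had a log2 fold change of -0.10 ± 0.35 (edgeR adjusted p = 0.983) and Ftl1 of -0.09 ± 0.32 (edgeR adjusted p = 0.981). Snord35b had 0.15 ± 0.27 (edgeR adjusted p = 0.956). Slc6a16 had 4 reads in all old against 0 in all young libraries. It passed the filter through the Bak1-deficient groups alone, so its age difference is described by its reads, with no test. Differences of the size of these standard errors were not detectable with 3 libraries a group.

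Dhdh came closest to an age difference, though it was chosen on comparisons that used the same young libraries and is not tested independently of them. It averaged 9.14 ± 2.21 CPM in old and 5.75 ± 1.34 CPM in young cells, and the old library was the higher on each date, by ratios of 1.62, 1.43 and 1.74. Its log2 fold change was 0.67 ± 0.23 (edgeR unadjusted p = 0.014, adjusted p = 0.228). With collection date as a block Dhdh passed (edgeR adjusted p = 0.0186, in a fit with 4 residual degrees of freedom). That fit called 2028 genes in old against young cells, against 273 without the block. Old and young libraries of Dhdh did not overlap, and 9.16% of all genes were higher in that way. Summed T cell, NK cell, stromal and mature B cell markers did not overlap between old and young libraries either. Mature B cell markers were lower in old cells, at 16197 to 20018 CPM, against 21617 to 23128 CPM in young cells. The 7 T cell markers, of which 3 rose, summed to 20.3 to 24.9 CPM in old and 2.01 to 4.15 CPM in young cells. The 4 NK cell markers summed to 3.94 to 6.13 CPM in old and 0.385 to 2.24 CPM in young cells, and the 4 stromal markers to 15.3 to 129 CPM in old and 2.05 to 10.7 CPM in young cells. The macrophage marker Adgre1 rose, with 34.9 ± 14.6 CPM in old and 6.87 ± 3.55 CPM in young cells (edgeR adjusted p = 0.0198), and Cd93 fell, with 12.1 ± 2.22 CPM in old and 32.4 ± 3.45 CPM in young cells (edgeR adjusted p = 0.00514). The part of these markers in the Dhdh difference was not tested.

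Around Bax, 39 genes of the table lay within 250 kb, and 22 of them were tested, 4 of these being Bax, Ftl1, Dhdh and Slc6a16. In apoptosis-resistant against apoptosis-sensitive cells, 4 of the 22 did not overlap, all of them lower. Bax and Ftl1 were chosen on this contrast, and without the chosen genes it was 2 of 18 (11.1%), Nucb1 and Bcat2, against 14.6% of all tested genes. Nucb1, a calcium-binding protein of the Golgi, had a log2 fold change of -0.17 ± 0.28, and Bcat2, the mitochondrial branched-chain aminotransferase, of -0.52 ± 0.32. Gys1, the muscle form of glycogen synthase and 5078 bases from Bax, averaged 25.0 ± 1.94 CPM in apoptosis-resistant and 30.0 ± 4.38 CPM in apoptosis-sensitive cells. Its libraries overlapped, and its log2 fold change was -0.26 ± 0.18. Within dates the apoptosis-resistant library was the lower each time, at 23.7 against 28.6, 27.2 against 34.9 and 24.1 against 26.5 CPM.

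In apoptosis-sensitive against young wild-type cells, 7 of the 22 did not overlap, 3 of them higher and 4 lower. Ftl1, Dhdh and Slc6a16 were chosen on this contrast, and without the chosen genes it was 4 of 18 (22.2%), against 8.81% of all tested genes. In old against young cells, where no Bax allele differed, 5 of the 22 did not overlap, and 4 of 18 (22.2%) without the chosen genes, against 16.1% of all tested genes. Among the neighbours that were not chosen, Tead2, a transcription factor of the Hippo pathway, averaged 5.17 ± 1.75 CPM in apoptosis-sensitive and 27.8 ± 23.7 CPM in young cells, with its highest value in the young library of 24 March. Bcat2 averaged 29.3 ± 1.45 CPM in apoptosis-sensitive and 55.1 ± 28.2 CPM in young cells, and Gys1 30.0 ± 4.38 CPM and 37.3 ± 0.58 CPM in the same groups. For all 6 Bak1-deficient against all 6 wild-type libraries, 5 of the 22 genes within 250 kb did not overlap, against 0.883% of all tested genes. Without the chosen genes it was 2 of 18 (11.1%), Tead2 and Bcat2. Within 1000 kb it was 8 of 78 tested genes, and 4 of 73 (5.48%) without the chosen genes. Within 1000 kb of Bak1 on chromosome 17, 37 genes were tested and Bak1 alone did not overlap.

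**Figure D4:**
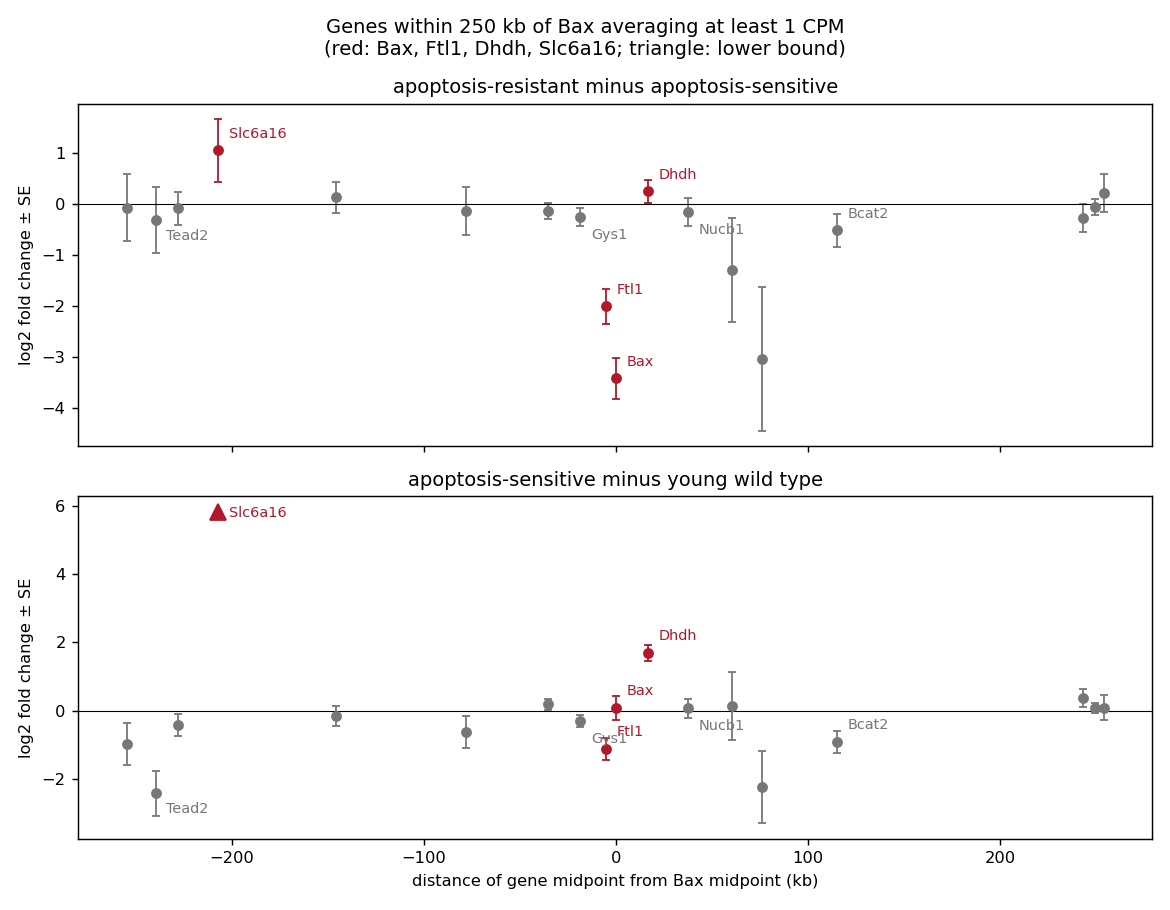
Log2 fold change ± SE of the 18 genes within 250 kb of Bax that averaged at least 1 CPM, by distance of the gene's midpoint from that of Bax, in apoptosis-resistant minus apoptosis-sensitive cells (top) and apoptosis-sensitive minus young wild-type cells (bottom). Bax and Ftl1 are low in the top panel, and in the bottom panel Bax lies near 0 while Slc6a16 (triangle, a lower bound) and Dhdh lie above it.

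The genes whose pattern over the 12 libraries was most like each member's were found by Pearson correlation of log2 CPM, as a description, since the libraries share group, date and depth. Nearest to Bax were Cfp (r = 0.953), Chka (0.925), Tuft1 (0.918), Relb (0.908) and Naa40 (0.906), and this order rests largely on the apoptosis-resistant libraries. Over the 9 libraries with Bax not deleted the nearest were Rpl12 (r = 0.991), Rabggtb (0.984), Slc25a3 (0.980), Wrap53 (0.979) and Rps12 (0.978), so that 0 of 5 were shared. Nearest to Ftl1 were Atp6v0c (r = 0.873), Gas2 (0.855) and Fancf (0.853). Slc6a16 was first for Dhdh (r = 0.953) and for Snord35b (0.967), and it was itself nearest to Prss41 (0.982), Snord35b (0.967) and Dhdh (0.953). Next for Dhdh were Zfp52 (0.933) and Prss41 (0.932), and for Snord35b Prss41 (0.945) and Uevld (0.941). Prss41, Zfp52 and Atp6v0c lie on chromosome 17, as Bak1 does, and Relb, Gas2, Fancf and Uevld on chromosome 7. The other genes nearest to Bax lie on other chromosomes. The part of chromosome position in this likeness was not tested. Dhdh, Slc6a16 and Snord35b were chosen on differences between the same groups, so their likeness to one another follows in part from that choice.

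The partners of BAX in apoptosis were counted in lists without the 5 genes. In apoptosis-resistant against apoptosis-sensitive cells, where 0.0441% of all tested genes passed by edgeR, the BH3-only gene Bbc3, which encodes PUMA, rose. It had 33.3 ± 11.7 CPM in apoptosis-resistant and 5.91 ± 2.05 CPM in apoptosis-sensitive cells, a log2 fold change of 2.49 ± 0.34 (edgeR adjusted p = 0.0395). Its adjusted p was above the threshold when any 1 of the apoptosis-resistant libraries, or the first or second apoptosis-sensitive library, was left out, with a highest value of 0.227. The other 5 tested BH3-only genes did not pass, among them Bcl2l11 (BIM), at 147 ± 6.12 CPM in apoptosis-resistant and 61.1 ± 13.8 CPM in apoptosis-sensitive cells (edgeR adjusted p = 0.1004). Bmf stood at 236 ± 35.9 CPM in apoptosis-resistant and 85.4 ± 15.2 CPM in apoptosis-sensitive cells (edgeR adjusted p = 0.195). Both passed with collection date as a block, with edgeR adjusted p of 0.00192 for Bcl2l11 and 1.66e-05 for Bmf. The block fit called 463 genes in this comparison, against 6 without the block.

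Of 7 tested anti-apoptotic genes, none passed by edgeR in apoptosis-resistant against apoptosis-sensitive cells, while 2 had an unadjusted p under 0.05 and 2 passed by DESeq2. Bcl2 had 90.3 ± 22.4 CPM in apoptosis-resistant and 168.5 ± 30.2 CPM in apoptosis-sensitive cells (edgeR adjusted p = 0.230, and 0.00373 with collection date as a block). Mcl1 had 1013 ± 35.1 CPM in apoptosis-resistant and 1528 ± 136 CPM in apoptosis-sensitive cells (edgeR adjusted p = 0.485, and 0.0106 with the block, which called 463 genes). The 8 genes of the apoptosome and the executioner caspases gave 0 calls by edgeR, by DESeq2 and at an unadjusted p under 0.05 alike. The median log2 fold change was -0.32 over the anti-apoptotic, 0.56 over the BH3-only and -0.02 over the apoptosome genes, beside -0.02 over all tested genes. T cell markers summed to 8.36 to 13.6 CPM in apoptosis-resistant and 2.85 to 6.47 CPM in apoptosis-sensitive cells, with Tcf7 at 6.60 ± 2.20 CPM in apoptosis-resistant and 1.93 ± 0.53 CPM in apoptosis-sensitive cells. Cd3e, which defines T cells, was at 0.343 ± 0.040 CPM in apoptosis-resistant and 0.415 ± 0.279 CPM in apoptosis-sensitive cells. NK cell markers summed to 0.364 to 0.812 CPM in apoptosis-resistant and 1.06 to 2.24 CPM in apoptosis-sensitive cells, and mature B cell markers to 19744 to 20430 CPM in apoptosis-resistant and 21180 to 21645 CPM in apoptosis-sensitive cells. No marker of these 3 lists passed the threshold by edgeR. Cd93, against which the cells were sorted, had 18.0 ± 2.71 CPM in apoptosis-resistant and 32.2 ± 0.94 CPM in apoptosis-sensitive cells (edgeR unadjusted p = 8.26e-04, adjusted p = 0.220). Rag1, also of the immature B cell list, went the other way, at 33.8 ± 10.9 and 10.8 ± 6.35 CPM. Of the 5 genes of that list, none passed by edgeR and 1 by DESeq2. The part of all these markers in the gene differences above was not tested.

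Apoptosis-resistant against young wild-type cells gave calls for 0.162% of all genes, Bbc3 among them at 2.80 ± 0.35 on the log2 scale (edgeR adjusted p = 0.00743). In apoptosis-sensitive against young wild-type cells 0% of the genes passed by edgeR, while 371 had an unadjusted p under 0.05 and 15 passed by DESeq2. In old against young cells the BH3-only gene Bmf fell, with 19.1 ± 7.35 CPM in old and 79.2 ± 26.2 CPM in young cells (edgeR adjusted p = 0.0105). With only those 6 libraries in the fit its edgeR adjusted p was 0.138.

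**Figure D5:**
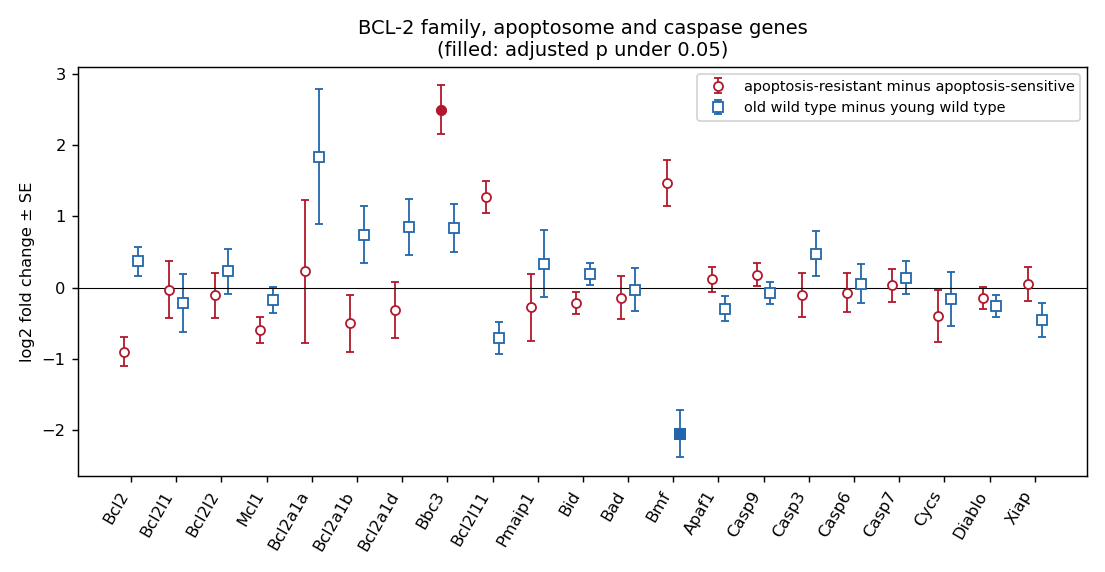
Log2 fold change ± SE of anti-apoptotic, BH3-only, apoptosome and caspase genes in apoptosis-resistant minus apoptosis-sensitive cells (circles) and old minus young wild-type cells (squares); filled symbols passed an edgeR adjusted p of 0.05. Bbc3 is the filled circle, at 2.49, and Bmf the filled square, at -2.05.

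The families of the neighbours were counted in the same way. Of 11 other tested genes of iron storage and handling, none passed by edgeR or DESeq2 in any of the 4 comparisons, and 1, the transferrin receptor gene Tfrc, had an unadjusted p under 0.05 in apoptosis-resistant against young cells. With collection date as a block Tfrc passed in old against young cells, where that fit called 2028 genes, and no other gene of the list did. Fth1, the ferritin heavy chain that assembles with the light chain, averaged 953 ± 166 CPM in apoptosis-resistant, 887 ± 246 CPM in apoptosis-sensitive, 495 ± 303 CPM in old and 560 ± 306 CPM in young cells. Its spread within wild-type groups was wide, and no comparison of it passed the threshold. Of 5 other tested SLC6 genes, only the betaine transporter gene Slc6a12 passed, in old cells, at 2.46 ± 1.48 CPM against 0.044 ± 0.076 CPM in young cells (edgeR adjusted p = 0.0223). Its edgeR adjusted p was 0.0621 without the second old library, 0.0569 without the first and 0.119 without the second young library, and 0.0816 without the 24 March pair.

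Total counts per library ran from 13474162 to 23539764. Replicates of a group correlated at 0.929 to 0.991 over 12 pairs. On the principal component that held most variance (31.9%), the 24 March libraries stood apart from the other 10. All 10 mature B cell markers were above 1 CPM in all 12 libraries and summed to 16197 to 23128 CPM. Cd93, against which the cells were sorted, had 9.52 to 36.1 CPM.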

How the data were processed

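RNA of sorted mature B cells was sequenced in 12 libraries of 4 groups, made with a TruSeq RNA v2 kit, per the labels' protocols. The authors deposited whole-number read counts per gene in 1 table. Subread, featureCounts and mm10 are named in the submitters' processing notes. Their versions, the annotation and the strand setting are not given in the sources used here. Symbols and coordinates came from RefSeq (GRCm38.p6), which matched 25275 of 27179 genes, and exon lengths and overlaps from GENCODE M21. Columns not used numbered 0. The total counts per library set the precision.

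Counts were scaled by the trimmed mean of M values and filtered by filterByExpr (minimum 10 reads), which left 13592 genes. All 12 libraries were fitted by group with edgeR 4.0.16 (robust quasi-likelihood, R 4.3.3, 8 residual degrees of freedom) and p values adjusted by Benjamini-Hochberg over all tested genes, with a threshold of 0.05. An SE is the fold change divided by the square root of F. Log2 CPM for correlations used a prior count of 2. The procedure was tested on simulated data. The 5 genes and the lists were chosen with earlier results of these data known. Neighbours were named by position within 250 kb where libraries did not overlap and the mean was at least 1 CPM, list genes by call and then by level.

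Collection dates in the labels pair the libraries. The deviations of same-date libraries from their group means correlated at 0.284, 0.325 and 0.487 between apoptosis-resistant and apoptosis-sensitive cells and at 0.745, 0.512 and 0.555 between old and young cells. Alternatives were other size factors, no filter, only the 6 libraries compared, DESeq2 1.42.0, date as a block, another prior count, each library left out and, chosen after seeing the data, the 24 March or the 7 May libraries left out. One gene of the region is not reported here.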

Additional observations from a re-analysis of the deposited data

How the results depend on the processing

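Of 418 alternative values, 343 kept their direction and side of the threshold or moved by less than the spread between replicates. Bax in apoptosis-resistant against apoptosis-sensitive cells stayed between -3.62 and -3.07 on the log2 scale in 13 alternatives. Genes called in apoptosis-resistant against apoptosis-sensitive cells numbered 6, but 11 without a filter, 127 with DESeq2, 463 with collection date as replicate block, 31 without the 24 March and 0 without the 7 May libraries, where 1 library left out gave 0 to 5. In apoptosis-sensitive against young cells the count was 0, but 3 without a filter, 15 with DESeq2, 3 without the 24 March and 1 without the 7 May libraries, and 0 to 1 with 1 library left out. In apoptosis-resistant against young cells it was 22, but 34 without a filter, 12 in only the 6 libraries, 143 with DESeq2, 4 without the 7 May libraries, and 10 to 20 with 1 library left out. In old against young cells it was 273, but 1 in only the 6 libraries, 746 with DESeq2, 2028 with the block, and 75 to 238 with 1 library left out. The block brought Dhdh in old against young cells to 0.66 (edgeR adjusted p = 0.0186). The age differences of Bax and Ftl1, both within their SE, changed sign: with 1 library left out Bax ran from -0.45 to 0.32 (0.12 without the second old library, 0.32 without the first young one) and Ftl1 from -0.32 to 0.16, and Ftl1 was 0.10 without the 24 March libraries. The causes were not tested. No paired analysis was possible for the wild-type against mutant groups because they shared no collection date. Genes with few reads, such as Slc6a16 in wild-type cells, are limited by depth.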
